A study of Mus musculus with 4 samples.

Results

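The replication-dependent histone genes encode the core histones H2A, H2B, H3 and H4 and the somatic linker histone H1. They were taken as every row of the deposited table whose gene symbol belongs to these families (H1f1 to H1f6, H2ac, H2bc, H3c and H4c followed by a number, or the older Hist1 to Hist4 names), which gave 56 of 27115 rows. The rule used the symbol only, not any level. The 56 rows comprised 4 H1, 15 H2A, 16 H2B, 9 H3 and 12 H4 genes, and each had at least 1 read in the 4 libraries. RNA was sequenced from mouse embryos at the 2-cell stage, cultured in vitro to day 2. There were 2 libraries of embryos labelled Trim75 OE in genotype (overexpression of Trim75, a member of the tripartite motif family) and 2 libraries of control embryos labelled WT. The labels name no strain, no embryo number per library, no means of overexpression and no control injection, and do not say whether replicate libraries are separate collections of embryos. The p-values therefore reflect variation among these 4 libraries alone, part of which may be technical.

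In dividing cells these genes are transcribed during DNA replication, when each daughter genome needs new nucleosomes. Their mRNAs are the best known animal mRNAs that end without a poly(A) tail. The transcript is cut just after a short hairpin, the histone stem-loop, which is held by the stem-loop binding protein Slbp. The U7 small nuclear ribonucleoprotein helps to make this cut. Mouse oocytes store histone mRNA, and the early embryo divides on that supply until its own genome is transcribed. In RNA from whole embryos, fewer transcripts per cell and fewer cells carrying them cannot be told apart.

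Trim75 itself had 12091 and 10537 reads in the Trim75 OE libraries, against 1773 and 1703 reads in the control libraries. These correspond to 919 and 990 counts per 1000000 reads (CPM, library sizes scaled by the trimmed mean of M-values, TMM), against 171 and 117 CPM. Its log2 fold change was 2.73 ± 0.28 (SE), with an adjusted p of 0.321 in edgeR's quasi-likelihood test over 16801 genes and 5.17e-14 in DESeq2, and a range of 5.17e-14 to 0.903 over all alternatives. Library totals were 9965081 to 14599670 reads. Summed markers of the 2-cell embryo were 1651 and 1679 CPM in the Trim75 OE libraries, against 1078 and 1842 CPM in the control libraries. Summed oocyte markers were 3371 and 3190 CPM, against 2829 and 2654 CPM. Summed cumulus and granulosa markers were 44.5 and 40.8 CPM, against 69.7 and 40.3 CPM. Star was at 0 in the controls, and all of its 45 reads lay in Trim75 OE replicate 1. Has2, Ptx3, Fshr and Foxl2 were at 0 in the Trim75 OE libraries, but had only 2, 3, 4 and 2 reads in all, so these zeros do not separate the groups. Members of the lists went both ways: 8 of 11 markers of the 2-cell embryo were fitted higher and 3 lower. Of 8 oocyte markers, 5 were fitted higher and 3 lower, where 51.3% and 48.7% of all genes tested were. Of 12 cumulus and granulosa markers, 8 were in the table. Amhr2, chosen after its values were seen, held most of that sum (40.5 and 27.9 CPM, against 56.8 and 39.6 CPM). Tnfaip6, chosen likewise, had 0 and 136 reads in the Trim75 OE libraries, against 124 and 3 reads in the control libraries. The part of these markers in the histone values was not tested. The library identifiers form 1 series per group, so a batch that they might mark cannot be told apart from the groups.

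The sequence that defines the family was found first. A stem-loop of 16 bases, with exactly paired arms of 6 bases that begin with a pair of G and close on a T-A pair, and a loop of 4 bases that begins with a run of T, occurred in the annotated transcript of 37 of the 56 genes, against 57 of 55450 annotated mouse genes (0.103%). The stem-loops of the genes on which the results turn are given here 5′ to 3′ on the strand of the gene, from GENCODE M21 transcripts (GRCm38, mm10), with the 16 bases of stem, loop and stem in capitals.
H2ac23 (chr13:21810893-21810918, plus strand): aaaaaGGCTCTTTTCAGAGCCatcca
H2ac24 (chr13:21833026-21833049, minus strand): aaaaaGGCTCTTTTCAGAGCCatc
H2ac11 (chr13:22042478-22042503, minus strand): acaaaGGCTCTTTTCAGAGCCaccta
H1f3 (chr13:23555782-23555807, plus strand): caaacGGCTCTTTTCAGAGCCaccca
H2bc11 (chr13:22043633-22043658, plus strand): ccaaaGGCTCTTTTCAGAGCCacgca
H3c15 (chr3:96238480-96238505, minus strand): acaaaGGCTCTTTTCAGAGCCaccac
H3c6 (chr13:23561898-23561923, minus strand): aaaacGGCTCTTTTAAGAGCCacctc
H4c9 (chr13:22040961-22040986, minus strand): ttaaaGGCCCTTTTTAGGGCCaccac
H4c14 (chr3:96262934-96262959, minus strand): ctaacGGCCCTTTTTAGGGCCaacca
The letters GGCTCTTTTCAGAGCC were the commonest form, shared by 21 genes of the H1, H2A, H2B and H3 classes. All 10 H4 stem-loops had other arms, of which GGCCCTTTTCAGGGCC was found in 6 genes, and H4c9 and H4c14 were the 2 genes with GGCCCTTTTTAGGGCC. The annotated transcript ended within 60 bases after the stem-loop in 19 genes and ran on beyond that in 18. Several of the remaining genes are annotated only to the stop codon, so a stem-loop after it could not be found.

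Because copies of a class are nearly the same in sequence, a read may fit several of them, and how the counting treated such reads is not given in the sources used here. The median share of a gene's 50-base windows that occurred in no annotated gene outside its own locus was 94.8% for H1, 60.1% for H4, 53.1% for H2B, 39.6% for H3 and 21.1% for H2A. H2ac23 and H2ac24 have identical coding sequences of 390 bases, and H2ac11 differs from them at 3 bases. A sum over a class depends less than the level of any copy on how shared reads were divided, so classes are described first. Where a read was counted in every copy that it fits, a sum would hold it more than once. Levels and ratios compared between classes carry this limit.

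The H2A transcripts, which encode the histone of the outer H2A-H2B dimers, had the highest summed CPM of the classes in each library. H2A was also the one class with a lower sum in Trim75 OE embryos without overlap. Summed H2A reads were 734 and 1191 in the Trim75 OE libraries, against 2081 and 3826 in the control libraries. On the CPM scale the sums were 55.8 and 112 CPM, against 201 and 262 CPM, with means of 83.9 ± 39.7 CPM in Trim75 OE embryos and 232 ± 43.5 CPM in control embryos (SD, n = 2). Both Trim75 OE libraries lay below both control libraries, and the control mean was 2.76-fold the Trim75 OE mean (log2 ratio -1.47). The log2 ratio was -1.08 without Trim75 OE replicate 1, -2.05 without Trim75 OE replicate 2, -1.66 without control replicate 1 and -1.26 without control replicate 2. A sum over chosen genes was given no p-value, and with 2 libraries against 2 an exact permutation test could not have gone below 0.33.

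Linker histone H1, which binds the DNA between nucleosomes, differed in the other direction at a much lower level. Its 4 genes had 93 and 141 reads in the Trim75 OE libraries, against 47 and 47 reads in the control libraries, or 7.07 and 13.2 CPM against 4.53 and 3.22 CPM. The libraries of the groups did not overlap, and the Trim75 OE mean was 2.62-fold the control mean (log2 ratio 1.39). Without H1f1 the log2 ratio was 0.38, so most of the difference in the sum lay in that gene.

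H2B, H3 and H4 overlapped between the groups. H2B, the partner of H2A in the dimer, had 147 and 154 reads in the Trim75 OE libraries, against 117 and 243 reads in the control libraries (11.2 and 14.5 CPM, against 11.3 and 16.7 CPM; log2 ratio -0.12). H3, which forms the inner tetramer with H4, had 11 and 106 reads, against 150 and 65 reads (0.836 and 9.96 CPM, against 14.5 and 4.46 CPM), and its log2 ratio of -0.81 was -3.49 without Trim75 OE replicate 2 and 0.27 without control replicate 1. H4 had 572 and 185 reads, against 389 and 332 reads (43.5 and 17.4 CPM, against 37.5 and 22.8 CPM), and its log2 ratio of 0.01 was -0.82 without Trim75 OE replicate 1. None of these 3 classes could be placed higher or lower at this spread.

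**Figure D1:**
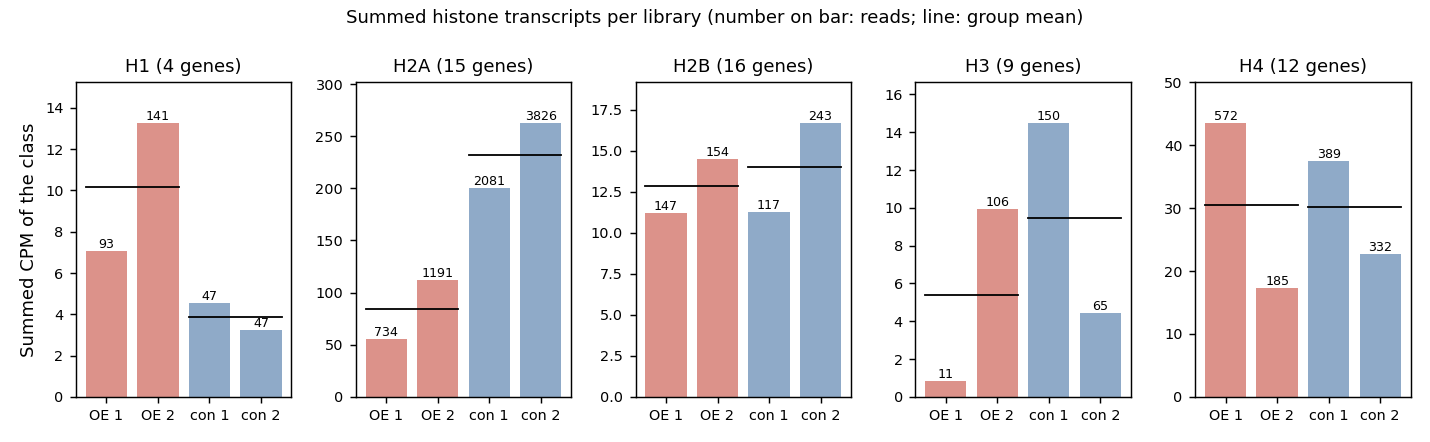
Summed CPM (y axis, each panel on its own scale from 0) of the H1, H2A, H2B, H3 and H4 genes in the 2 Trim75 OE libraries (OE, left) and the 2 control libraries (con, right); numbers on the bars are reads and lines are group means. For H2A both Trim75 OE bars stand below both control bars, for H1 both stand above, and the other classes overlap.

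All 56 genes together summed to 118 and 167 CPM in the Trim75 OE libraries, against 269 and 309 CPM in the control libraries (log2 ratio -1.02). Without the H2A rows the sums were 62.6 and 55.1 CPM, against 67.8 and 47.1 CPM, which overlapped (log2 ratio 0.03). The lower total was thus carried by H2A in these libraries. On the per-length scale of the deposited FPKM values (fragments per length of transcript and library size), H2A was 9.94 and 10.04 times H2B in the Trim75 OE libraries, against 27.2 and 25.2 times in the control libraries. The ratios of H2A to the other core classes overlapped: H2A was 105 and 20.9 times H3, against 23.2 and 110.04 times, and 1.86 and 8.84 times H4, against 8.63 and 14.4 times.

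Among the H2A genes, H2ac23 and H2ac24 carried the class. H2ac23 had 307 and 499 reads in the Trim75 OE libraries, against 888 and 1694 reads in the control libraries, and H2ac24 had 325 and 494 reads, against 852 and 1704 reads. The ratio of H2ac24 to H2ac23 was between 0.959 and 1.06 in the 4 libraries, and for genes with identical coding sequence the 2 rows are not separate measurements. Per length, H2ac23 averaged 70.7 FPKM in Trim75 OE embryos and 214 FPKM in control embryos, and the most abundant H4 gene, H4c1, averaged 14.7 FPKM and 28.3 FPKM.

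In edgeR's quasi-likelihood test the log2 fold change was -1.52 ± 0.49 (SE) for H2ac23, with an unadjusted p of 0.033 and an adjusted p of 0.384 over all genes tested. For H2ac24 it was -1.48 ± 0.48 (SE), with an adjusted p of 0.382. Neither passed the adjusted threshold of 0.05 in edgeR, DESeq2 or limma voom, and the adjusted p of H2ac23 ranged from 0.0904 to 0.903 over the alternatives. Leaving out Trim75 OE replicate 2 gave H2ac23 a log2 fold change of -2.11.

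The summed rest of the class was also lower in Trim75 OE embryos, at a lower level. H2ac11, at chr13:22042460-22042944, had 74 and 113 reads in the Trim75 OE libraries, against 185 and 303 reads in the control libraries, with no overlap (log2 fold change -1.25 ± 0.81, SE; adjusted p = 0.733). H2ac10 had 10 and 18 reads, against 23 and 33 reads. H2ac22, chosen after its values were seen, had 2 and 2 reads, against 10 and 29 reads. With H2ac23 and H2ac24 left out, the class still summed to 7.76 and 18.6 CPM in the Trim75 OE libraries, against 32.9 and 29.3 CPM in the control libraries, a log2 ratio of -1.24. With H2ac11 left out as well, it summed to 2.13 and 7.99 CPM, against 15.1 and 8.57 CPM. These sums were made after the values were seen, and reads that fit several copies may link them to H2ac23 and H2ac24.

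Over all 15 H2A rows, whether or not they passed the filter on low counts, mean CPM was lower in Trim75 OE embryos for 13 and higher for 2. In 7 of the 15 both Trim75 OE libraries lay below both controls, and in 0 above. Over the whole table, 15.8% of rows had both Trim75 OE libraries below both controls and 19.8% above. For all 56 histone genes the counts were 15 below, 8 above and 33 overlapping, so the other 4 classes together gave 8 below and 8 above.

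**Figure D2:**
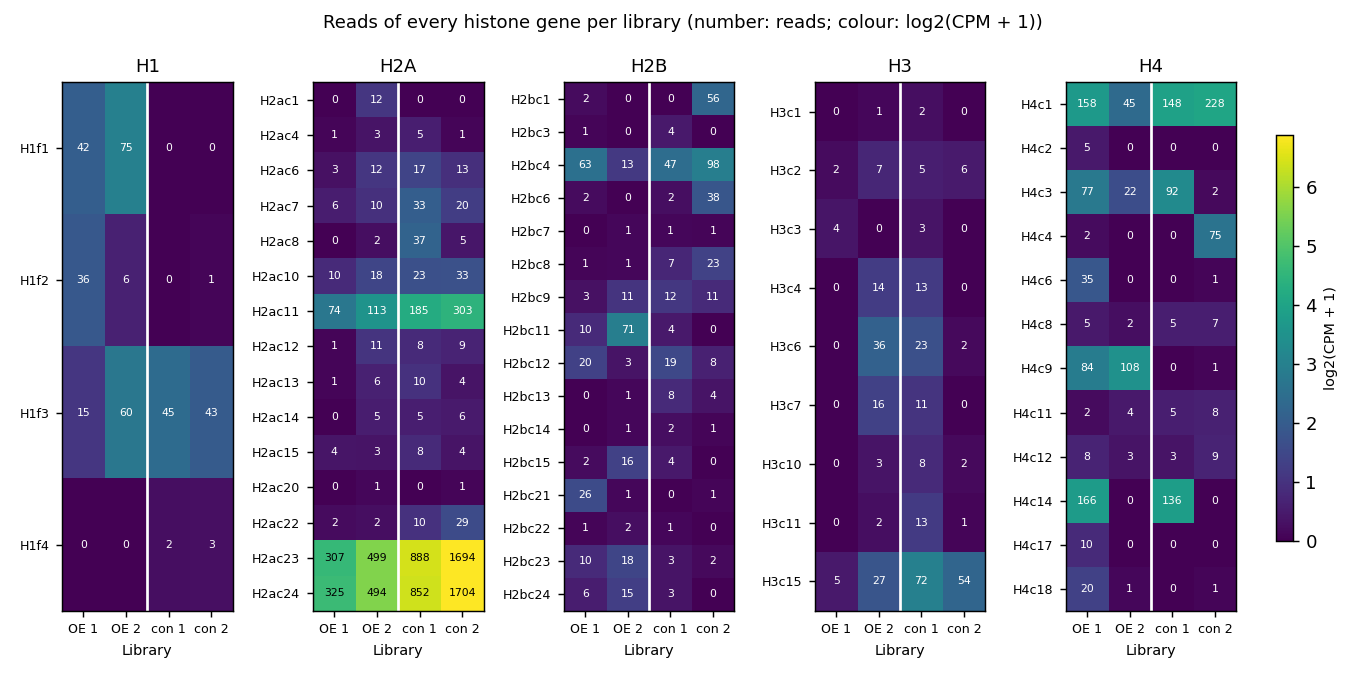
Reads (numbers) and log2(CPM + 1) (colour) of all 56 histone genes, by class, in the 2 Trim75 OE libraries (OE, left of the white line) and the 2 control libraries (con, right). H2ac23 and H2ac24 hold the highest values in every library, and many other copies have reads in 1 or 2 libraries.

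H2ac23, H2ac24 and H2ac11 lay lower together, but the rows of H2ac23 and H2ac24 are not separate measurements. The sequences upstream of these leading H2A genes were compared, and their part in the levels was not tested. They are printed 5′ to 3′ as the 150 bases before the start of the RefSeq transcript (GRCm38.p6), with the 3 motifs described after them in capitals, on either strand.
H2ac23 (chr13:21810217-21810366, plus strand): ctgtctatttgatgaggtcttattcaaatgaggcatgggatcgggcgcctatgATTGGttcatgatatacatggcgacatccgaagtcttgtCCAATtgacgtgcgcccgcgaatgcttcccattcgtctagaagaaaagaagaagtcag
H2ac24 (chr13:21833476-21833625, minus strand): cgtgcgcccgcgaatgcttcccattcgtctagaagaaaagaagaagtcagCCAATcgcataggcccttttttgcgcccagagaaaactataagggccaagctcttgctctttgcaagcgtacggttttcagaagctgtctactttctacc
H2ac11 (chr13:22042950-22043099, minus strand): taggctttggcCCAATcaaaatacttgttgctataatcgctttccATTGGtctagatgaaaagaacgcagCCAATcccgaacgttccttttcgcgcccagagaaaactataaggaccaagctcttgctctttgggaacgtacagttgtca
The stretches for H2ac23 and H2ac24 share a run of 50 bases, which ends the first and begins the second, because RefSeq and GENCODE place the starts of both genes differently. CCAAT, a box bound by the factor NF-Y, lay in the 250 bases before the start in 40 of 49 histone genes with a RefSeq promoter, against 37.5% of all genes. By class it was present in 14 of 14 H2A, 13 of 13 H2B, 4 of 4 H1, 6 of 7 H3 and 3 of 11 H4 genes. The octamer ATTTGCAT, the binding site of Oct1, was found in 6 of 14 H2A and 6 of 13 H2B genes, in 0 of the other classes and in 1.81% of all genes. TATAAA was found in 26 of 49, against 14.3% of all genes. Matches of different motifs overlapped in 46 of the 32851 promoter sequences searched.

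H2A and H2B genes lie mostly as divergent pairs that share a promoter region, and 14 such neighbouring pairs of histone genes with starts within 1000 bases were found. The partners of a pair could differ widely in level. H2ac24 and H2bc24 are 235 bases apart, and H2bc24 had 6 and 15 reads in the Trim75 OE libraries, against 3 and 0 reads in the control libraries. H2ac23 and H2bc23 are 267 bases apart, and H2bc23 had 10 and 18 reads, against 3 and 2 reads. Both H2B partners were thus higher in both Trim75 OE libraries while their H2A neighbours were lower, at far smaller totals (33 reads for H2bc23 in the 4 libraries, against 3388 reads for H2ac23). The coding sequences of H2bc23 and H2bc24 are identical, so these too are not separate measurements, and both were chosen after their values were seen. The 14 pairs did not all differ in this way. H2ac8 (0 and 2 reads, against 37 and 5) and its partner H2bc8 (1 and 1 reads, against 7 and 23), chosen likewise, were both lower without overlap. No common direction of partners can be read from these pairs.

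Within H1, a different gene led in each group. H1f1, the gene of linker histone H1.1, had 42 and 75 reads in the Trim75 OE libraries and 0 and 0 reads in the control libraries, so that it was at least 40.9-fold higher (3 reads over the control pair taken as the floor). It lies at chr13:23763666-23764406, all of its 50-base windows occur in no other gene, and no stem-loop of the searched form was found in its annotated transcript. Its adjusted p was 0.321 in edgeR and 0.0472 in DESeq2, with a range of 0.0472 to 0.903 over the alternatives. H1f2 had 36 and 6 reads, against 0 and 1 read, a ratio of summed reads of 44.0 with a counting interval of 7.48 to 1780. H1f3, which supplied nearly all control H1 reads, had 15 and 60 reads in the Trim75 OE libraries, against 45 and 43 reads in the control libraries, and overlapped. H1f4 had 0 and 0 reads, against 2 and 3 reads. On the FPKM scale, which weights the short H1f1 transcript more than the long annotated H1f3 transcript, the log2 ratio of the H1 sums was 3.69.

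H4 sums did not separate, but its genes differed in opposite ways. H4c9, at chr13:22040636-22041362, had 84 and 108 reads in the Trim75 OE libraries, against 0 and 1 read in the control libraries. Its summed reads were 201 times higher, with a counting interval of 35.7 to 7993, and 71.1% of its 50-base windows occur in no other gene. Its adjusted p was 0.321 in edgeR and 0.0107 in DESeq2, with a range of 0.0107 to 0.903 over the alternatives. H4c1, the most abundant H4 gene in both control libraries, had 158 and 45 reads in the Trim75 OE libraries, against 148 and 228 reads in the control libraries; on the CPM scale the groups did not overlap (12.02 and 4.23 CPM, against 14.3 and 15.6 CPM; log2 fold change -0.88 ± 0.94, SE; adjusted p = 0.886).

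Other H4 genes varied between libraries of the same group as widely as any difference between groups. H4c14, on chromosome 3 at chr3:96261682-96263311, had 166 and 0 reads in the Trim75 OE libraries, against 136 and 0 reads in the control libraries, so that all of its reads lay in replicate 1 of each group. H4c3 had 77 and 22 reads, against 92 and 2 reads. H4c9 and H4c14, which carry the same stem-loop letters above, therefore had different patterns over the libraries.

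**Figure D3:**
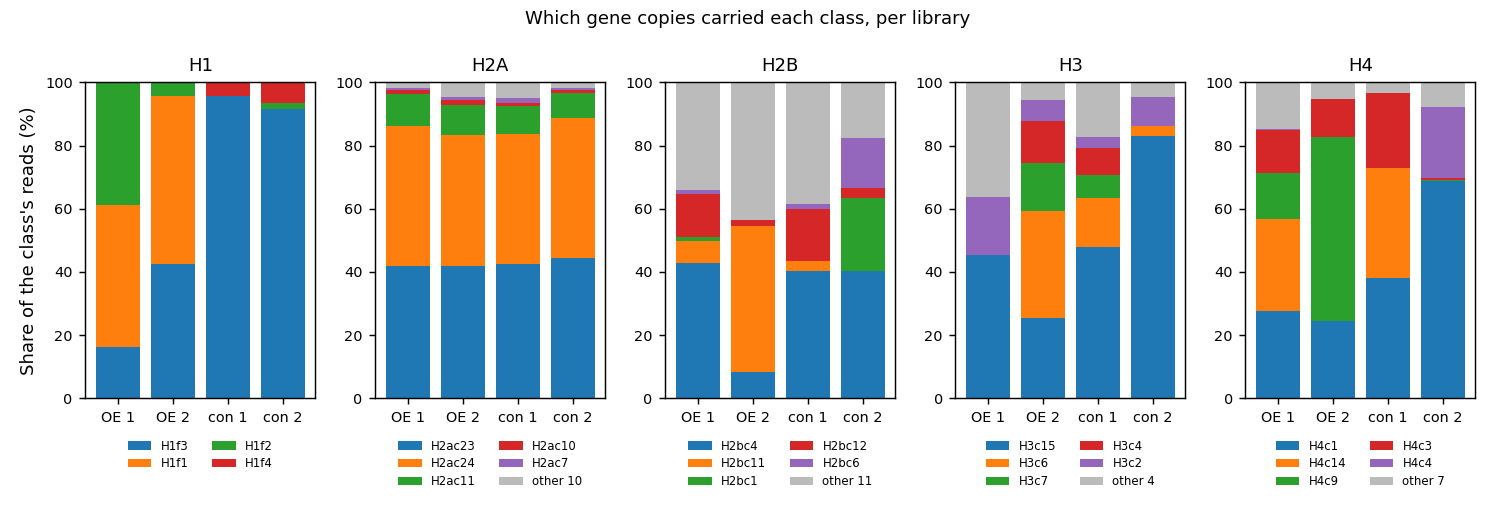
Share (%) of each class's reads held by its 5 most abundant genes (all 4 for H1) and the remaining genes, in the 2 Trim75 OE libraries (OE, left) and the 2 control libraries (con, right). H2A is led by H2ac23, H2ac24 and H2ac11 in all 4 libraries, H1 is led by H1f1 in both Trim75 OE libraries and by H1f3 in both controls, and the leading genes of H2B, H3 and H4 differ between the 2 Trim75 OE libraries.

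Upstream of H1f1 and H4c9, the 2 tested histone genes with nearly all of their reads in the Trim75 OE libraries, the 150 bases before the RefSeq start read as follows, with the same matches in capitals.
H1f1 (chr13:23763518-23763667, plus strand): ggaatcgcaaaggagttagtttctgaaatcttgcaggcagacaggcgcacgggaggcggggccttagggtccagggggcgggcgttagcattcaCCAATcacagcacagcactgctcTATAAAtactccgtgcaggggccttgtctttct
H4c9 (chr13:22041363-22041512, minus strand): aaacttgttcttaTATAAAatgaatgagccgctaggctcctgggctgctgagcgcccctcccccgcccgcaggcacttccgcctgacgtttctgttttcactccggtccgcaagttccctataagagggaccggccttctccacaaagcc
H1f1 has a match to CCAAT and, after it, one to TATAAA close to its start, and H4c9 has a match to TATAAA far from it.

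H2B and H3 genes were sparse. H2bc4, the leading H2B gene, had 63 and 13 reads in the Trim75 OE libraries, against 47 and 98 reads in the control libraries, and overlapped. H2bc11 had 10 and 71 reads, against 4 and 0 reads, and H2bc12 had 20 and 3 reads, against 19 and 8 reads. H2bc1, the H2B variant known from mouse testis and oocytes, had 2 and 0 reads, against 0 and 56 reads, so that 1 control library held nearly all of them. H3c15, the leading H3 gene, had 5 and 27 reads in the Trim75 OE libraries, against 72 and 54 reads in the control libraries, with no overlap (log2 fold change -1.86 ± 1.4, SE; adjusted p = 0.794). H3c6 had 0 and 36 reads, against 23 and 2 reads. H3c4 had 0 and 14 reads, against 13 and 0 reads, and H3c7 had 0 and 16 reads, against 11 and 0 reads. The last 3 genes thus had their reads chiefly in Trim75 OE replicate 2 and control replicate 1.

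Such uneven rows also occurred elsewhere in the table. Of the 37 histone genes with at least 20 reads in all, 6 had over 90% of them in 1 library (H2bc1, H2bc6, H2bc21, H4c4, H4c6 and H4c18), where 11.3% of the 20255 rows with as many reads did.

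The filter on low counts passed 20 of the 56 genes (2 H1, 7 H2A, 3 H2B, 4 H3 and 4 H4), and 16801 rows in all. A gene could pass through the group where it was high, so the counts among the 20 describe them and support no direction. Both Trim75 OE libraries lay above both controls for 2 and below both for 8 of the 20, where 24% and 19.6% of all genes tested did. The fitted value was higher in Trim75 OE embryos for 5 and lower for 15, where 51.3% and 48.7% of all genes tested were, and the median log2 fold change was -0.73, against 0.03 over all genes tested. It was also -0.73 with H1f1 placed at its bound. In edgeR 0 of the 20 passed an adjusted p of 0.05, as did 0% of all genes tested, and limma voom also called 0. At an unadjusted p under 0.05 there were 5 histone genes, 2 higher (H1f1 and H4c9) and 3 lower (H2ac22, H2ac23 and H2ac24), where 11.2% of all genes tested passed, 7.71% higher and 3.53% lower. That count was 0 without Trim75 OE replicate 1, 2 without Trim75 OE replicate 2 and 2 without control replicate 2. DESeq2, run on every row with a read, gave an adjusted p to 13 histone genes and called H1f1 and H4c9, both higher, where it called 5.51% of 16075 genes, 3.78% higher and 1.73% lower.

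**Figure D4:**
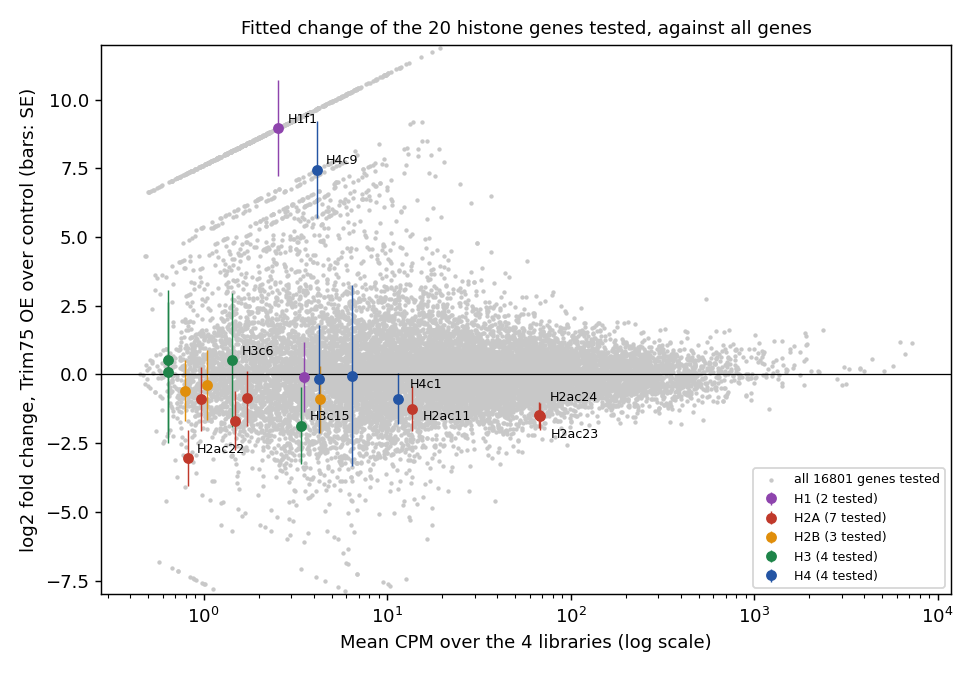
Fitted log2 fold change of Trim75 OE over control (y axis) against mean CPM over the 4 libraries (x axis, log scale) for the 20 histone genes tested, coloured by class with SE bars, and for all 16801 genes tested in grey (60 lie outside the plotted range). The 7 H2A genes lie below 0, and H1f1 and H4c9 lie high, where the fitted value depends on the prior count because the control libraries hold 0 or 1 read.

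The genes were also divided by the position of the stem-loop in the annotated transcript. The 19 genes whose transcript ended within 60 bases of it, the form of mature histone mRNA, summed to 62.5 and 113.6 CPM in the Trim75 OE libraries, against 194 and 257 CPM in the control libraries (log2 ratio -1.36). Most of this sum lay in H2ac23, at 23.3 and 46.9 CPM, against 85.7 and 116 CPM, and in H2ac24. H2ac24 measured 24.7 and 46.4 CPM, against 82.2 and 117 CPM. With H2ac11 they carried the lower sum. The other genes of this form together were higher in both Trim75 OE libraries than in both controls, at a low level. The 18 genes with a longer annotated 3′ end summed to 30.4 and 29.98 CPM, against 46.0 and 19.1 CPM, and overlapped. The 19 genes with no such stem-loop in the annotated transcript summed to 25.5 and 23.4 CPM, against 29.04 and 33.3 CPM, lower without overlap (log2 ratio -0.35). Several of these are annotated only to the stop codon, such as H2ac22, with 393 bases for a coding sequence of 390 bases. This group therefore does not mark genes that lack a stem-loop. The labels call the libraries mRNA and the input total RNA, and whether poly(A) was used to select or prime it is not given in the sources used here. A protocol that relies on poly(A) recovers stem-loop mRNAs poorly, so levels here are those of the captured transcripts only.

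Genes that make, process and degrade histone mRNA were taken from a list. Of its 34 symbols, 32 were in the table and all 32 were tested, with 16 fitted higher and 16 lower, a median log2 fold change of -0.01 and 0 past the adjusted threshold in edgeR. At an unadjusted p under 0.05 there were 5, 1 higher and 4 lower, against the 11.2% over all genes. Slbp, which binds the stem-loop, measured 284 and 180 CPM in the Trim75 OE libraries, against 184 and 246 CPM in the control libraries, and overlapped. DESeq2 called Ccne2 (higher) and Srrt and Upf1 (lower), 3 of 32, where it called 5.51% of all genes, 3.78% higher and 1.73% lower. Both Trim75 OE libraries lay above both controls for 10 of the 32 and below both for 8, where 24% and 19.6% of all genes tested did.

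Cyclin E and Cdk2 drive entry into DNA replication and activate histone transcription. Ccne2 measured 244 and 312 CPM in Trim75 OE embryos, against 119 and 126 CPM in control embryos (log2 fold change 1.18 ± 0.25, SE; adjusted p = 0.321 in edgeR). Its paralog Ccne1 measured 497 and 419 CPM, against 448 and 645 CPM, and overlapped. Cdk2, their kinase, measured 79.3 and 77.1 CPM, against 147 and 163 CPM (log2 fold change -0.98 ± 0.26, SE; adjusted p = 0.322). The transcription factor E2f1 measured 347 and 430 CPM, against 619 and 343 CPM. Thus Ccne2 stood higher and Cdk2 lower in both Trim75 OE libraries, without passing the edgeR threshold.

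Among the RNA factors, Srrt, which links the cap-binding complex to 3′ end processing, measured 16.2 and 9.87 CPM in Trim75 OE embryos, against 102 and 80.1 CPM in control embryos (log2 fold change -2.80 ± 0.49, SE; adjusted p = 0.321 in edgeR). Upf1, a helicase needed for decay of histone mRNA when replication stops, measured 37.6 and 31.1 CPM, against 83.7 and 95.1 CPM. Cstf2t, a cleavage stimulation factor subunit, measured 141 and 181 CPM, against 323 and 280 CPM. These 3 genes are among the 8 that were lower without overlap. Among the 10 higher without overlap were Sympk, at 33.7 and 21.9 CPM, against 14.5 and 8.16 CPM, and Lsm10, at 59.8 and 97.2 CPM, against 37.1 and 54.9 CPM, both chosen after their values were seen.

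Genes listed as replication-independent histones, many but not all of whose mRNAs carry poly(A) tails, gave a point of comparison for levels. Of 29 symbols, 14 were in the table and 11 were tested, with 5 fitted higher and 6 lower and 0 past the adjusted threshold in edgeR. H3f3b and H3f3a encode the variant H3.3. H3f3b measured 1116 and 1573 CPM in Trim75 OE embryos, against 750 and 982 CPM in control embryos, and H3f3a measured 363 and 401 CPM, against 341 and 447 CPM. H2az2, of the H2A.Z variant, measured 180 and 213 CPM, against 359 and 435 CPM (log2 fold change -1.01 ± 0.24, SE; adjusted p = 0.321 in edgeR). H2aj, another H2A variant, measured 7.68 and 7.14 CPM, against 16.02 and 16.8 CPM. H1f8, the linker histone of the oocyte, had a log2 fold change of -1.37 ± 0.20 (SE) and the centromere histone Cenpa one of 0.09 ± 0.24 (SE). Of the 11 tested, 4 (H1f8, H2az2, H2aj and H2az1) stood lower without overlap and 1 (H3f3b) higher, where 19.6% and 24% of all genes tested did. DESeq2 called H1f8 and H2az2, both lower, where it called 1.73% of all genes lower.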

How the data were processed

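The raw counts and FPKM values were used as the authors deposited them in 1 table of the whole series. The submitters' processing notes list featureCounts, HISAT2, Trim Galore, FastQC and the mm10 build, without versions. Strand use and the treatment of reads that fit several genes are not stated there. The deposited FPKM values served per-length comparisons only, and the deposited counts every test.

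Counts were filtered with filterByExpr, scaled by TMM and tested with edgeR 4.0.16 (quasi-likelihood, Benjamini-Hochberg adjustment over 16801 genes, R 4.3.3); the script was tested on simulated data. CPM sums per class used the same scaling. The SE printed with an edgeR log2 fold change was derived from the test, as the absolute fold change over the root of its F statistic. DESeq2 1.42.0, limma 3.58.1 and the other alternatives are given at the end. "Overlap" means that the ranges of the groups' CPM overlapped. Floors and intervals (95%, exact) cover counting error only, since no molecular identifiers are reported.

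Members and gene lists were chosen with earlier results of these data known. The genes named were Trim75, the 4 most abundant of each class, the tested members with the lowest unadjusted p in each direction, and in each other list the 4 most abundant and the 4 with the lowest unadjusted p. Stem-loops and 50-base windows came from GENCODE M21 transcripts and promoters from RefSeq, matched by symbol and position for 49 of 56 genes.

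Same-numbered libraries did not deviate together (correlation 0.01 over 16801 genes), so the numbers were not taken as pairs.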

Additional observations from a re-analysis of the deposited data

How the results depend on the processing

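The replicate block left the edgeR counts at 0 genes called over all genes, 4 histone genes at an unadjusted p under 0.05 and 5 fitted higher, and changed no other call; the pairing is not given by the labels. DESeq2 called 885 genes, 2 histone genes and 3 histone mRNA processing genes where edgeR called 0 of each, and Trim75 passed there (log2 fold change 2.73). With 5 CPM required in 2 libraries, 3 histone genes had an unadjusted p under 0.05 and 1 was fitted higher; with no filter 19 were fitted higher, since more genes entered.

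Leaving out 1 library in turn (a lone library took its spread from the opposite group) gave log2 ratios of 0.87 to 1.75 for H1, -2.05 to -1.08 for H2A, -0.39 to 0.18 for H2B, -3.49 to 0.27 for H3, -0.82 to 0.53 for H4 and -1.29 to -0.82 for all members. It gave 9 to 16 histone genes fitted higher, 6 to 11 higher without overlap and 13 to 17 lower without overlap, where the full set gave 5, 2 and 8. The filter was run again in each of these fits, and a lone library overlaps a pair less readily. These counts therefore cannot be set against those of the full set.

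Other scalings (RLE, upper quartile, total counts) kept every class sum within its spread. Deposited FPKM gave H1 a log2 ratio of 3.69. Without the most abundant copy, H1 was at 4.86 and H2B at 0.23. With only genes that have at least 50% of their windows to themselves, H2B was at -1.16 and all members at -0.082. H2A was then at -1.27, from H2ac1, H2ac6 and H2ac8 alone, without the genes that led the class. H2ac1 (0 and 12 reads in Trim75 OE, against 0 and 0) and H2ac6 (3 and 12, against 17 and 13) overlapped. H2ac8 (0 and 2, against 37 and 5) was lower without overlap. The H2A difference thus lay mostly in rows whose reads may fit several copies. Sums chosen after seeing the data gave H1 0.38 without H1f1 and all members 0.034 without H2A.

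Of 180 fits of named genes, 160 kept direction and side of the threshold and 2 passed it under DESeq2 (H1f1 and H4c9). The other 18 changed sign. Leaving out 1 library gave ranges of -1.66 to 0.60 for H1f3, -2.05 to 0.70 for H2bc12, -0.93 to 1.05 for H3c4, -6.90 to 3.52 for H3c6, -0.50 to 6.27 for H3c7, -9.28 to 9.33 for H4c14 and -1.16 to 4.75 for H4c3. H3c4 was at -0.039 with total counts, H3c6 at -0.79 in voom and -0.56 with the replicate block, H4c14 at 0.59 in voom, and H4c3 at 1.76 in voom and 1.496 with the replicate block. The cause was not tested. Depth limits copies with few reads: 36 of 56 histone genes did not pass the filter.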

Other observations

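The 2 blocks of histone genes on chromosome 13 both summed lower in Trim75 OE embryos. The first block, chr13:21715763-22043676 with 23 genes, summed to 67.4 and 129.8 CPM in the Trim75 OE libraries, against 197 and 259.9 CPM in the control libraries. The second block, chr13:23531050-23934851 with 29 genes, summed to 35.97 and 34.5 CPM, against 51.8 and 45.7 CPM. The 4 genes on chromosome 3 overlapped, at 14.98 and 2.73 CPM, against 20.1 and 3.84 CPM. H2ac23, H2ac24 and H2ac11 lie in the first block and carried its lower sum. The other genes of that block together were higher in both Trim75 OE libraries than in both controls, a remainder looked at after the values were seen. H4c9 and H2bc11, described above, are among them.

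Every H2A row (15 of 15) has an annotated gene on the opposite strand of its exon, against 1 of 12 H4 genes and 0 of the H1, H2B and H3 genes. With strand use not given, reads of the 2 strands cannot be told apart, so this limit falls almost only on H2A. Of the 14 genes with at least 75% of their 50-base windows found nowhere else, 4 had over 90% of their reads in 1 library. Of the 16 genes with under 25%, 2 did.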
